A study of Mus musculus with 16 samples.

Results

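The 6 genes described here, of 55385 in the count tables, belong to the anaplastic lymphoma kinase (ALK) family in the mouse or have been linked to it. Alkal1 and Alkal2 encode secreted ligands, Alk and Ltk encode the receptor tyrosine kinases that these ligands bind, and Ptn and Mdk encode pleiotrophin and midkine, heparin-binding growth factors that have also been linked to ALK. The set was chosen by name around Alkal2, because Alkal2 rose with bicuculline and fell after Dnmt3a1 knockdown in these libraries. Its own values in those comparisons are therefore given as a description without a test. Of the 6 genes, 5 passed the filter on low counts, as did 17222 genes in all. Alkal1 did not.

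Primary hippocampal cultures from newborn C57Bl/6N mice were infected on day in vitro 4 with recombinant adeno-associated virus, and experiments ran on days 9 to 11. The virus carried either Control-shRNA or Dnmt3a1-shRNA2, 1 short hairpin against the long isoform of the DNA methyltransferase Dnmt3a, together with a GFP cassette under the chicken beta-actin promoter. Cultures were left at baseline or treated for 4 h with 50 µM bicuculline, a GABA-A receptor antagonist that induces bursts of action potentials. The 4 groups were thus Control-shRNA baseline, Control-shRNA bicuculline, Dnmt3a1-shRNA2 baseline and Dnmt3a1-shRNA2 bicuculline, each with 4 libraries from separate neuronal preparations, and every culture carried a virus and an shRNA. The comparisons ask which genes respond to activity and which depend on Dnmt3a1.

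ALK and LTK are relatives of the insulin receptor. A ligand brings receptor chains together, the chains phosphorylate each other, and adaptors such as SHC, IRS and FRS proteins carry the signal to the RAS-ERK, PI3K-AKT and JAK-STAT pathways. In the nervous system ALK is known from neuronal differentiation and from neuroblastoma, where the kinase is often mutated. Pleiotrophin and midkine bind a wider set of surface proteins, among them the receptor phosphatase PTPRZ1, syndecans, integrins and neuropilin-1.

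Library totals lay between 28912697 and 29586355 estimated counts, and mitochondrial transcripts took 2.73% to 6.60% of them. The targeted gene, Dnmt3a, fell to 14.2% of its Control-shRNA level at baseline and to 13.9% with bicuculline, which counts all Dnmt3a isoforms together. The activity-induced genes Arc, Fos and Npas4 rose with bicuculline by 5.64, 6.40 and 7.32 on the log2 scale in Control-shRNA cultures. Rbfox3, a marker of neurons, lay between 129.2 and 165.5 TPM (transcripts scaled to length and library total) in the 16 libraries. Not every neuron marker was as steady. Mean Tubb3 went with bicuculline from 1235 to 628.6 TPM in Control-shRNA and from 1615 to 656.8 TPM in Dnmt3a1-shRNA2 cultures. Markers of other cells were present too, with Gfap of astrocytes between 40.2 and 139.2 TPM, a sum of 81.2 to 187.7 TPM for 8 markers of the oligodendrocyte lineage (mainly Olig1, while Sox10 reached at most 0.0777), and a sum of 1.84 to 6.88 TPM for 6 microglia markers (Csf1r the highest of them, at most 3.56).

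The promoter of Alkal2 is shown because this gene differed in both kinds of comparison. The 250 bases before its RefSeq start lie at chr12:30884074-30884323 (GRCm38.p6, plus strand), with the short form of the cAMP-response element, TGACG, in capitals.
Alkal2: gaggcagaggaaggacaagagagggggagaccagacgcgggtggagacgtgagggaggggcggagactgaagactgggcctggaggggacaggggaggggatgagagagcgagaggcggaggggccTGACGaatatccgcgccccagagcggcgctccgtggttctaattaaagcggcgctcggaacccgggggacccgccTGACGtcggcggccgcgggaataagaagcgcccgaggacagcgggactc
The 2 matches begin 124 and 49 bases before the start. On either strand, 17.8% of 32851 promoter windows of this length held TGACG at least once. The full element TGACGTCA, held by 1.55% of windows, and the AP-1 motif TGANTCA, held by 6.75%, were not matched. The Alkal2 window held 25 CpG dinucleotides, which are among the sites that Dnmt3a can methylate, and 89.3% of windows held fewer. RefSeq windows were also listed for Alk (23 CpG and 1 TGACG match, 70 bases before the start), Ltk (16 CpG, no match) and Ptn (5 CpG, no match). The Ltk window belongs to the start of the shorter Ltk transcripts, inside the longer gene model. Methylation was not measured in these libraries, and a match is a run of letters and no measured site.

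Per transcript length, the 6 genes were expressed at very different levels. In Control-shRNA baseline cultures the mean was 92.7 ± 29.7 TPM for Ptn (SD, n = 4), 18.2 ± 4.18 for Alkal2, 6.12 ± 1.59 for Mdk, 3.75 ± 0.51 for Alk and 1.90 ± 0.084 for Ltk, and no neighbours in this order overlapped in their libraries. The order changed with bicuculline, where Alkal2 at 97.1 ± 23.7 TPM lay next to Ptn at 91.6 ± 24.9 and their libraries overlapped. After Dnmt3a1 knockdown at baseline, Alkal2 at 8.63 ± 2.19 TPM overlapped with Mdk at 6.83 ± 2.14, and Mdk in turn with Alk at 3.68 ± 0.77. Ltk was the lowest of the 5 tested genes in every group. Alkal2 thus moved from above 57.7% of the 17222 tested genes to above 89.3% with bicuculline in Control-shRNA cultures, while Alk stayed above 32.5% to 35.7% of them in the 4 groups.

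Alkal1, the other ALKAL ligand, was close to absent. Its gene lies on chromosome 1 (6359218 to 6394731, plus strand). A single count was assigned to it, in Control-shRNA bicuculline replicate 1, and 15 of 16 libraries had 0. A count of 0 allows up to 3 counts, which is 0.101 to 0.104 CPM (counts scaled to the library total) at these totals and covers counting error only. Alkal1 was not tested.

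Alkal2 was measured as CPM after TMM scaling, which corrects each library's total for the genes that dominate it. At Control-shRNA baseline the 4 libraries gave 12.7, 7.69, 11.8 and 14.01 CPM in replicate order, and with bicuculline they gave 100.3, 52.6, 59.9 and 73.9. After Dnmt3a1-shRNA2 the values were 7.03, 5.003, 7.05 and 4.51 CPM at baseline and 45.0, 33.8, 34.6 and 39.5 with bicuculline. Every bicuculline library lay above every baseline library of its shRNA, and every Dnmt3a1-shRNA2 library lay below every Control-shRNA library of the same treatment. These values include reads that cannot be told apart from those of the overlapping gene Acp1 by strand. Replicate 1 was the highest library with bicuculline under both shRNAs, and replicate 2 the lowest.

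The mean went from 11.5 ± 2.73 to 71.7 ± 21.04 CPM (SD, n = 4) in Control-shRNA cultures, or by 2.63 on the log2 scale, rank 151 from the top of the 17222 genes. After knockdown it went from 5.90 ± 1.33 to 38.2 ± 5.19 CPM, a log2 fold change of 2.69. The ratio to the matching baseline mean was thus 6.21 and 6.48, whereas the added expression differed, 60.1 CPM against 32.3 CPM, or 53.7% as much. Knockdown left 51.1% of the Control-shRNA level at baseline and 53.3% with bicuculline, with log2 fold changes of -0.97 and -0.91. Leaving out single libraries moved these 4 log2 fold changes within 2.43 to 2.76, 2.59 to 2.79, -1.12 to -0.86 and -1.03 to -0.71.

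The interaction of shRNA and bicuculline, the difference between the responses under the 2 shRNAs, rests for Alkal2 on the contrasts that chose the gene and is given as a description. It was 0.06 on the log2 scale, and its sign turned in 6 of 16 fits that each left out 1 library (-0.06 to 0.26), namely without replicate 4 of Control-shRNA baseline, replicates 2 or 3 of Control-shRNA bicuculline, replicates 2 or 4 of Dnmt3a1-shRNA2 baseline or replicate 1 of Dnmt3a1-shRNA2 bicuculline. No tested gene passed the interaction at an adjusted p under 0.05 (0.0% called by edgeR, with 852 genes, 4.95%, at an unadjusted p under 0.05, 18 genes called by DESeq2 and 0 by voom), and none of Alk, Ltk, Ptn and Mdk had an unadjusted p under 0.05.

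**Figure D1:**
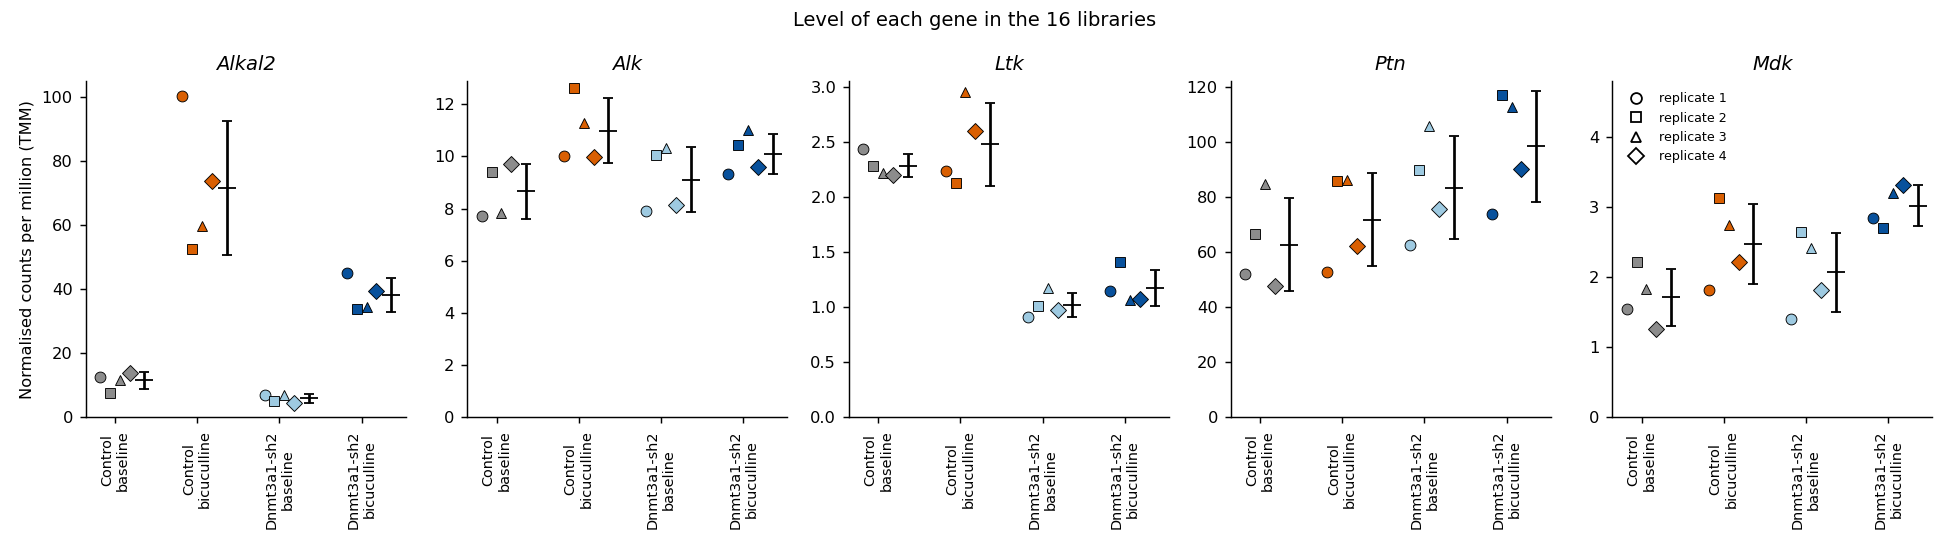
CPM after TMM scaling of Alkal2, Alk, Ltk, Ptn and Mdk in each of the 16 libraries, with 1 marker shape per replicate number and the group mean ± SD (n = 4) beside the points. The Dnmt3a1-shRNA2 libraries of Alkal2 and Ltk lie below the Control-shRNA libraries of the same treatment, and the y axes start at 0.

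Of the receptor genes, Ltk was lower after Dnmt3a1 knockdown in both conditions, to under 50% of its Control-shRNA level, and Alk passed no threshold between the shRNAs. Ltk encodes leukocyte tyrosine kinase, the smaller receptor of the family, and lies on chromosome 2 (119751320 to 119760431, minus strand) with no other annotated gene overlapping it. Its estimated counts were 74, 74, 73 and 68 at Control-shRNA baseline and 60, 60, 86 and 74 with bicuculline. After Dnmt3a1-shRNA2 they were 26, 31, 37 and 29 at baseline and 29, 38, 30 and 29 with bicuculline. All 8 knockdown libraries lay below all 8 Control-shRNA libraries.

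In CPM, Ltk went from 2.29 ± 0.11 to 1.02 ± 0.11 (SD, n = 4) at baseline, which is -1.16 on the log2 scale (SE 0.15, 95% interval -1.48 to -0.84) with an edgeR quasi-likelihood adjusted p of 5.27e-05 over all 17222 genes. With bicuculline it went from 2.48 ± 0.37 to 1.17 ± 0.16 CPM, a log2 fold change of -1.08 (SE 0.15, 95% interval -1.40 to -0.76, adjusted p = 0.000106). These were rank 133 and rank 172 from the bottom of the 17222 genes. An exact permutation test on log2 CPM over the libraries, two-sided, gave p = 0.0286 in each, the smallest p that 4 against 4 can give, and 0.114 after adjustment over 16 such tests. Every leave-one-out fit kept the call, with log2 fold changes from -1.24 to -1.11 at baseline and -1.18 to -0.98 with bicuculline. Bicuculline itself moved Ltk by 0.12 (SE 0.14, interval -0.18 to 0.42, adjusted p = 0.549) and 0.20 (SE 0.16, interval -0.14 to 0.54, adjusted p = 0.395) on the log2 scale in Control-shRNA and Dnmt3a1-shRNA2 cultures, and both directions turned in an alternative scaling.

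Alk, the receptor gene that gives the family its name, lies on chromosome 17 (71868972 to 72604627, minus strand). It gave 7.70, 9.42, 7.82 and 9.73 CPM at Control-shRNA baseline and 10.01, 12.6, 11.3 and 9.997 with bicuculline. In Dnmt3a1-shRNA2 cultures it gave 7.91, 10.04, 10.3 and 8.15 CPM at baseline and 9.34, 10.4, 11.01 and 9.60 with bicuculline. The Control-shRNA groups did not overlap, while the knockdown groups did. In Control-shRNA cultures Alk was 0.34 higher with bicuculline on the log2 scale (SE 0.11, 95% interval 0.10 to 0.58, edgeR adjusted p = 0.0228), which is under the fold threshold of 0.5 used for a call. By the adjusted p alone 41.4% of all genes passed in this comparison, and 39.7% had groups that did not overlap. Without TMM scaling the median of all genes shifted by -0.15 and -0.16 in the bicuculline comparisons, so small rises such as this one are relative to the other genes. In knockdown cultures the difference was 0.15 (SE 0.11, interval -0.09 to 0.39, adjusted p = 0.316). Knockdown itself moved Alk by 0.07 (interval -0.17 to 0.31) at baseline, in a direction that turned with the scaling, and by -0.12 (interval -0.36 to 0.12) with bicuculline.

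The summed levels of marker genes of several cell types also differed between the groups. The summed TPM of 5 GABAergic neuron markers (Gad1, Gad2, Slc32a1, Dlx1 and Dlx2) ranged from 978.4 to 1130 at Control-shRNA baseline and from 657.0 to 849.4 after knockdown, and from 1257 to 1425 and 971.6 to 1134 with bicuculline. Of these 5, 3 (60.0%) were called higher with bicuculline under each shRNA, where 10.8% and 12.6% of all genes were, and 0 were called between the shRNAs by edgeR (1 of 5 at an unadjusted p under 0.05 in each condition, and 5.83% and 5.89% of all genes called), where their log2 fold changes ran from -0.42 to -0.0034 at baseline and from -0.29 to 0.04 with bicuculline. The sum of 4 excitatory neuron markers (Slc17a7, Slc17a6, Camk2a and Neurod6) was 1546 to 1641 at Control-shRNA baseline and 1297 to 1493 after knockdown. With bicuculline it was 1169 to 1361 and 978.5 to 1280, so this sum lay lower with bicuculline, where the GABAergic sum lay higher. The sums are TPM without TMM scaling, whereas the log2 fold changes are TMM-scaled. Without TMM scaling the median of all genes shifted by -0.15 and -0.16 with bicuculline, and by -0.07 and -0.08 after knockdown. The 4 genes did not move together. With bicuculline 1 was called higher and 1 lower under each shRNA, with median log2 fold changes of 0.03 and -0.0005. In Control-shRNA cultures mean Slc17a6 rose from 11.4 to 29.4 TPM. In the same TPM, Neurod6 (264.4 to 93.8), Slc17a7 (845.8 to 755.8) and Camk2a (460.3 to 405.3) were lower. After TMM scaling only 1 of the 4 was called lower. Between the shRNAs 0 of the 4 were called, with medians of -0.008 at baseline and 0.07 with bicuculline. Of 6 microglia markers (Cx3cr1, P2ry12, Csf1r, Tmem119, C1qa and Aif1) 2 were tested, Csf1r and C1qa. After knockdown 1 of them was called lower in each condition, where 4.07% and 3.9% of all genes were. Their log2 fold changes ran from -0.66 to 0.04 at baseline and from -0.75 to -0.02 with bicuculline. The sums of all 6 were 3.99 to 6.88 TPM at Control-shRNA baseline and 1.84 to 4.55 after knockdown, and 4.09 to 6.35 and 2.57 to 3.79 with bicuculline. Mean Csf1r went from 2.47 to 0.88 TPM after knockdown at baseline and from 1.97 to 0.79 with bicuculline. These drops in TPM are larger than the lowest log2 fold changes from counts, -0.66 and -0.75, and the reason was not tested. Mean C1qa went from 0.86 to 0.81 and from 1.26 to 1.16 TPM, and Tmem119 from 0.13 to 0.40 and from 0.23 to 0.23. Cx3cr1, a defining marker of microglia, reached at most 0.0982 TPM in any library. The part of these cell types in the values of Alkal2 and Ltk was not tested.

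The ratio of the receptor transcripts moved with Ltk. Per length, Alk exceeded Ltk by a ratio of 1.98 ± 0.32 at Control-shRNA baseline and 2.41 ± 0.48 with bicuculline (SD, n = 4), and by 4.78 ± 0.30 and 4.97 ± 0.80 after knockdown. The knockdown libraries spanned 4.27 to 6.10 and the Control-shRNA libraries 1.60 to 3.06. Summed over both genes, receptor transcripts came to 5.66 ± 0.49 and 5.88 ± 0.73 TPM in Control-shRNA cultures and to 4.45 ± 0.94 and 4.41 ± 0.48 TPM after knockdown. The ratio of Alkal2 to Alk was 4.94 ± 1.38 and 24.4 ± 9.19 in Control-shRNA cultures and 2.40 ± 0.68 and 13.4 ± 2.59 after knockdown.

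**Figure D2:**
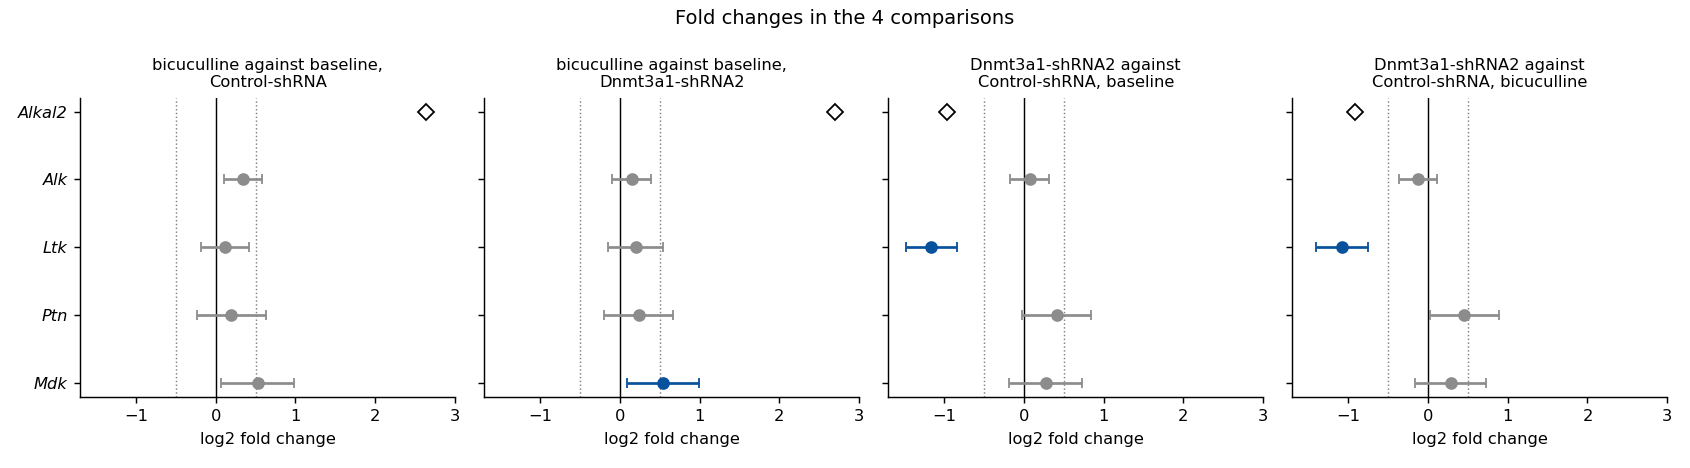
Log2 fold change of the 5 tested genes in the 4 comparisons, with 95% intervals from the edgeR fit. Blue points passed both the adjusted p of 0.05 and the fold threshold of 0.5 (dotted lines), grey points did not, and the open diamonds of Alkal2 are descriptive values with no interval. Ltk is the blue point at -1.16 and -1.08 in the knockdown comparisons.

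Mdk, the midkine gene on chromosome 2 (91929805 to 91932297, minus strand), was a weakly expressed gene that lay higher with bicuculline. Its CPM were 1.55, 2.22, 1.82 and 1.27 at Control-shRNA baseline and 1.82, 3.12, 2.75 and 2.21 with bicuculline. After Dnmt3a1-shRNA2 they were 1.41, 2.65, 2.41 and 1.82 at baseline and 2.85, 2.70, 3.21 and 3.32 with bicuculline. The Control-shRNA groups overlapped, and the knockdown groups did not, as was so for 40.4% of all genes. In knockdown cultures the log2 fold change was 0.54 (SE 0.21, 95% interval 0.09 to 0.99, edgeR adjusted p = 0.0454). That call was lost in 10 of 16 leave-one-out fits, with log2 fold changes from 0.40 to 0.68, namely without any library of Dnmt3a1-shRNA2 bicuculline, without replicates 1 or 4 of Dnmt3a1-shRNA2 baseline, replicates 1 or 3 of Control-shRNA baseline, or replicates 3 or 4 of Control-shRNA bicuculline. In Control-shRNA cultures it was 0.53 (SE 0.22, interval 0.07 to 0.98, adjusted p = 0.0603), and it passed the threshold without replicate 2 of Control-shRNA baseline (0.68), replicate 1 of Control-shRNA bicuculline (0.64) or replicate 1 of Dnmt3a1-shRNA2 baseline (0.53). All 4 same-numbered pairs were higher with bicuculline there, and a fit with the replicate number as a block gave 0.53 with an edgeR adjusted p of 0.0154, past the threshold, but with library sizes only and the block it was 0.36 (adjusted p = 0.0868). The call in knockdown cultures was also lost under 5 of 11 alternative settings, with log2 fold changes down to 0.30 and adjusted p up to 0.286. Of the 1325 31-mers of Mdk, 3.32% also occur in the pseudogene Mdk-ps1. Knockdown moved Mdk by 0.27 (interval -0.19 to 0.73, adjusted p = 0.449) at baseline and 0.29 (interval -0.16 to 0.73, adjusted p = 0.383) with bicuculline.

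Ptn, on chromosome 6 (36714929 to 36810220, minus strand), had the highest mean TPM of the 6 genes outside the Control-shRNA bicuculline group. Its TPM were 70.9, 98.0, 132.5 and 69.2 at Control-shRNA baseline, 62.1, 109.2, 115.0 and 80.1 with bicuculline, 77.6, 118.0, 158.0 and 103.1 at Dnmt3a1-shRNA2 baseline, and 80.8, 136.2, 143.8 and 106.5 with bicuculline. Replicates 2 and 3 were the higher libraries in all 4 groups, and the groups overlapped in each comparison. Knockdown moved Ptn by 0.41 on the log2 scale at baseline (SE 0.21, 95% interval -0.02 to 0.84, edgeR adjusted p = 0.197) and by 0.455 with bicuculline (SE 0.205, interval 0.02 to 0.89, adjusted p = 0.139), neither past the threshold. All 4 same-numbered pairs were higher after knockdown at baseline, and a fit blocked on replicate gave 0.42 there (edgeR adjusted p = 0.000328), past the p threshold and under the fold threshold. With bicuculline, the differences were 0.19 (interval -0.24 to 0.63) in Control-shRNA and 0.24 (interval -0.19 to 0.67) in knockdown cultures.

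The level of Ptn followed that of astrocyte markers from library to library. The summed TPM of 7 such genes (Gfap, Aqp4, Aldh1l1, Slc1a3, Gja1, S100b and Aldoc) ranged from 173.7 to 322.1 at Control-shRNA baseline, 146.0 to 322.9 with bicuculline, 195.7 to 421.7 at Dnmt3a1-shRNA2 baseline and 235.7 to 412.4 with bicuculline. Pearson's r between log2 Ptn and the log2 sum was 0.979 over the 16 libraries, and 0.978 for the deviations from group means. Both values are in TPM of the same libraries, so they share depth and scaling. Of the 7 markers, 1 (14.3%) was called higher after knockdown in each condition, where 1.76% and 2.0% of all genes were. With the replicate block 3 were called at baseline, and the block raised the count over all genes too. The median log2 fold change of the 7 was 0.41 and 0.43, next to 0.41 and 0.455 for Ptn. The part of astrocyte content in the values of Ptn was not tested, and in bulk RNA a difference in the number of cells of a type cannot be told apart from one in RNA per cell.

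**Figure D3:**
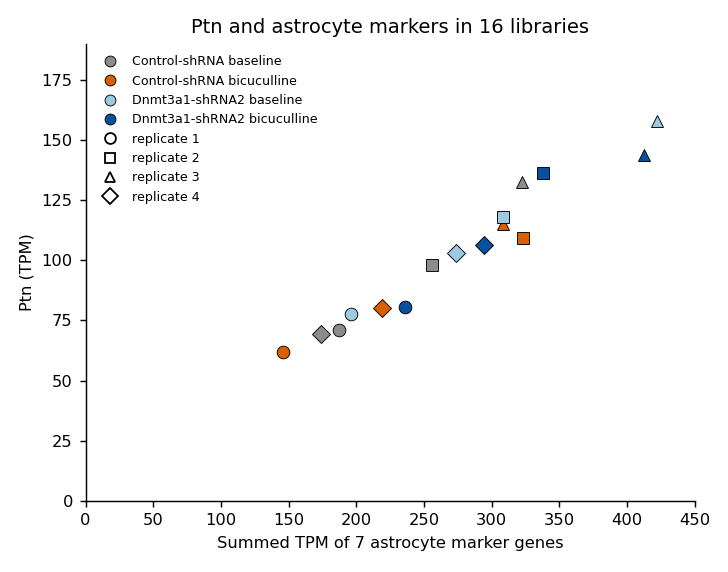
Ptn in TPM (y axis) against the summed TPM of 7 astrocyte marker genes (x axis) in the 16 libraries, coloured by group with 1 marker shape per replicate number. The points run from 62.1 TPM of Ptn at a sum of 146.0 to 158.0 TPM at a sum of 421.7.

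Counted over the family, 1 of 5 tested genes was called with bicuculline in Control-shRNA cultures, Alkal2, where 21.9% of all tested genes were called. The replicate block added Mdk and made it 2. In knockdown cultures 2 of 5 were called with bicuculline, Alkal2 and Mdk, against 25.8% of all genes. After Dnmt3a1 knockdown 2 of 5 were called in each condition, Alkal2 and Ltk, both lower, against 5.83% of all genes at baseline (4.07% lower) and 5.89% with bicuculline (3.9% lower). Alkal2 is in these counts because the set was built around it, which leaves Mdk and Ltk. The groups of Ltk and Alkal2 did not overlap between the shRNAs in either condition, as was so for 19.9% and 20.9% of all genes.

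The makeup of the ligand transcripts, here the sum of Alkal1, Alkal2, Ptn and Mdk, differed between the groups. Whether pleiotrophin and midkine act on ALK in these cultures was not measured. Alkal2 took 16.4% ± 5.94 of the summed ligand TPM at Control-shRNA baseline and 49.7% ± 12.7 with bicuculline (SD, n = 4). After knockdown it took 6.94% ± 2.30 and 28.6% ± 6.87. Ptn made up most of the remainder, with 78.3% ± 5.56 and 46.6% ± 11.8 in Control-shRNA cultures and 87.8% ± 1.92 and 66.5% ± 7.36 after knockdown. With bicuculline the Control-shRNA libraries spanned 37.9% to 65.5% Alkal2 and the knockdown libraries 22.8% to 37.6%. These are shares of transcripts and not of protein.

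**Figure D4:**
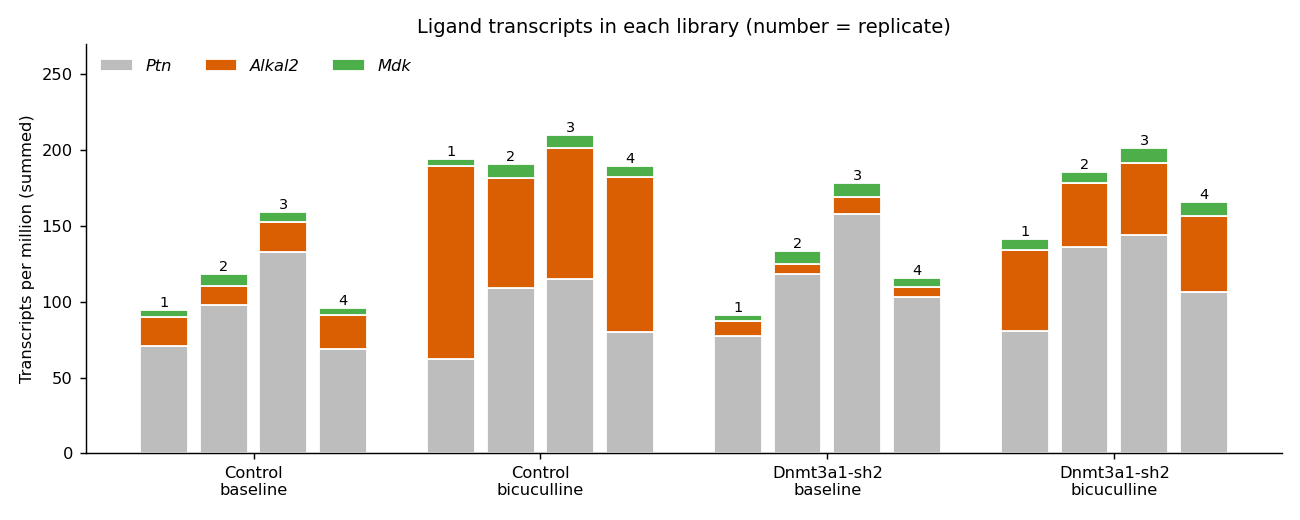
Stacked bars of the TPM of Ptn, Alkal2 and Mdk in each of the 16 libraries, grouped by shRNA and treatment and numbered by replicate; Alkal1 is at or near 0 and is not drawn. The Alkal2 segment is the largest in replicate 1 of Control-shRNA bicuculline, at 127.4 TPM.

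The surface proteins that bind pleiotrophin and midkine were taken as a list of 16 genes, all tested. With bicuculline 2 rose and 1 fell in Control-shRNA cultures (18.8% of the list, beside 21.9% of all genes) and 3 rose and 1 fell in knockdown cultures (25.0%, beside 25.8%), shares near the background. After knockdown, 1 rose and 3 fell at baseline (25.0%, beside 5.83%), and 2 fell with bicuculline (12.5%, beside 5.89%). Of all genes, 1.76% were called higher and 4.07% lower at baseline, and 3.9% lower with bicuculline. Nrp1 is among the genes that fell in both conditions. The study had already singled it out from these libraries as dependent on Dnmt3a1, so its part in these shares is no independent result. The median log2 fold change of the list was 0.16, 0.18, 0.23 and 0.23 in these 4 comparisons, beside 0.0057, -0.0080, 0.0070 and -0.0057 over all genes.

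Nrp1, which encodes neuropilin-1, a coreceptor for semaphorins and growth factors, went the way of Alkal2. Its mean was 134.1 ± 13.5 and 215.1 ± 17.1 CPM in Control-shRNA cultures and 62.0 ± 10.1 and 125.6 ± 7.80 CPM after knockdown (SD, n = 4). It rose with bicuculline by 0.68 and 1.02 on the log2 scale (edgeR adjusted p = 2.79e-05 and 2.73e-07), and knockdown changed it by -1.11 and -0.78 (adjusted p = 9.89e-07 and 4.28e-05). Itgb3, the integrin beta-3 subunit, had the largest knockdown difference of the list, from 3.05 ± 0.47 to 0.69 ± 0.077 CPM at baseline and from 2.62 ± 0.43 to 0.82 ± 0.15 CPM with bicuculline, log2 fold changes of -2.14 and -1.67 (adjusted p = 3.97e-07 and 6.51e-06). Itga4, the integrin alpha-4 subunit, fell with bicuculline by 1.67 and 1.39 on the log2 scale and after knockdown by 0.58 at baseline. Itgav, which encodes the alpha-V partner of Itgb3, rose by 0.57 and 0.75 with bicuculline, and Itgb1 rose by 0.61 in knockdown cultures. The calls of Itgav in Control-shRNA cultures and of Itgb1 were lost under 4 of 11 alternative settings each (down to 0.35 and 0.41), and that of Nrp1 in Control-shRNA cultures on both TPM scales (0.47). The call of Itga4 after knockdown at baseline was lost under 1 of 11 (-0.44).

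Sdc3, the neuronal syndecan that binds pleiotrophin, rose after knockdown at baseline by 0.58 on the log2 scale (601.0 ± 13.2 to 895.5 ± 84.8 CPM, edgeR adjusted p = 2.44e-05), and the call was lost under 4 of 11 alternative settings, all under the fold threshold (down to 0.42). With bicuculline the difference was 0.45 (602.4 ± 48.4 to 823.6 ± 34.9 CPM, adjusted p = 0.000251), under the fold threshold, and 0.51 without replicate 2 of Control-shRNA bicuculline. Ptprz1, the receptor phosphatase that pleiotrophin inhibits, had 207.2 ± 39.4 and 245.2 ± 70.7 CPM in Control-shRNA cultures and 244.2 ± 36.4 and 311.7 ± 63.9 CPM after knockdown. None of its 4 comparisons was called, with log2 fold changes from 0.24 to 0.35.

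Of 39 genes for adaptors and kinases that carry ALK signals, 5 rose and 2 fell with bicuculline in Control-shRNA cultures (17.9%, beside 21.9% of all genes), and 7 rose and 2 fell in knockdown cultures (23.1%, beside 25.8%). Shc4, an SHC adaptor, rose from 3.89 to 21.9 CPM (log2 fold change 2.49, edgeR adjusted p = 1.74e-10) and from 4.03 to 26.6 CPM after knockdown. Irs2, an insulin receptor substrate, rose by 1.54 and 1.68 on the log2 scale, and the transcription factor gene Stat3 by 1.08 and 1.17. Frs3, an FRS adaptor, fell by 0.57 and 0.87, and Nras, one of the RAS GTPases, by 0.68 and 0.54. Without replicate 1 of Control-shRNA bicuculline the change of Frs3 in Control-shRNA cultures was -0.44, under the fold threshold.

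After knockdown at baseline 1 of the 39 transducers was called (2.56%, beside 5.83% of all genes called and 1.76% called higher), namely Nras, higher by 0.59 on the log2 scale (54.5 to 81.8 CPM, edgeR adjusted p = 2.88e-05). With bicuculline 3 were called, all higher (7.69%, where 5.89% of all genes were called and 2.0% called higher): Nras by 0.72, the docking protein gene Gab1 by 0.63 and Stat3 by 0.54. The values of Gab1 and Stat3 were 0.4986 and 0.49 without replicate 1 of Control-shRNA bicuculline, under the fold threshold. Their calls were lost under 2 and 4 of 11 alternative settings (down to 0.45 and 0.41). The call of Nras at baseline was lost under 1 of 11 (0.49). The median of the list was 0.08 and 0.11 in the knockdown comparisons.

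Genes known to respond to ALK signalling, mostly through ERK, were taken as a list of 10. With bicuculline 6 rose in each shRNA condition, where 10.8% and 12.6% of all tested genes rose, and the medians were 1.41 and 1.62 beside 0.0057 and -0.0080 over all genes. They were Dusp4 and Dusp6, phosphatases that switch ERK off, Spry2 and Spry4, feedback inhibitors of receptor tyrosine kinases, the transcription factor gene Etv5, and Vgf, a neuropeptide precursor. Dusp4 rose by 2.84 and 3.19 on the log2 scale, Spry2 by 2.45 and 2.48, and Vgf by 2.003 and 2.78. Etv1 fell in knockdown cultures by 0.65. The same genes also respond to ERK activity from other receptors and from calcium entry, and the source of the signal was not measured.

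After knockdown the ALK-responsive list had a median of 0.02 at baseline and 0.06 with bicuculline. Vgf fell at baseline by 1.20 on the log2 scale (470.5 to 204.8 CPM, edgeR adjusted p = 0.000423) and differed by -0.43 with bicuculline (adjusted p = 0.140). Mycn, a proto-oncogene often amplified beside mutated ALK in neuroblastoma, rose by 0.52 and 0.59 (adjusted p = 0.0387 and 0.0212). The call of Mycn was lost in 6 and 5 of 16 leave-one-out fits, with values from 0.45 to 0.64 and 0.49 to 0.72. These were the fits without replicates 2, 3 or 4 of Control-shRNA or 1, 2 or 4 of Dnmt3a1-shRNA2 at baseline, and without replicates 2 or 3 of Control-shRNA or 1, 2 or 4 of Dnmt3a1-shRNA2 with bicuculline. Among related receptor kinases, Ros1 and Insrr did not pass the filter. Igf1r, the insulin-like growth factor receptor, rose after knockdown by 0.51 and 0.73 (adjusted p = 0.0224 and 0.00224), the former lost without replicates 2 or 4 of Control-shRNA or 1 or 4 of Dnmt3a1-shRNA2 at baseline (0.45 to 0.48). At baseline the calls of Mycn and Igf1r were each lost under 4 of 11 alternative settings (down to 0.38 and 0.30). With bicuculline they were lost under 2 and 1 of 11 (lowest values 0.47 and 0.51). Insr was not called.

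**Figure D5:**
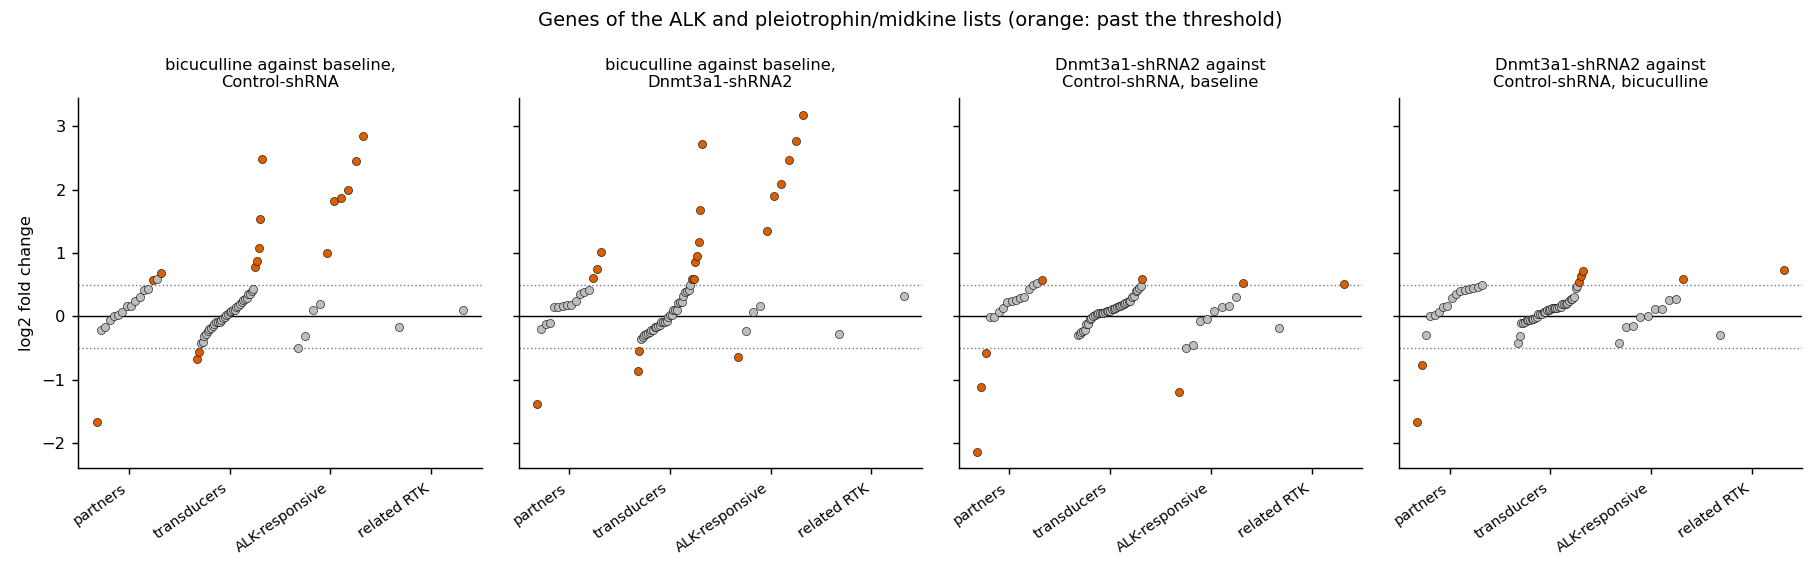
Log2 fold change of every tested gene of 4 lists in the 4 comparisons: 16 genes for binding partners of pleiotrophin and midkine, 39 for ALK signal transducers, 10 ALK-responsive genes and 2 related receptor tyrosine kinases. Each point is a gene, ordered by value within its list, orange where it passed the threshold (dotted lines at 0.5 and -0.5 mark the fold part of it). The ALK-responsive list reaches 2.84 and 3.19 with bicuculline.

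The measurement of Alkal2 has a limit set by its neighbour. Alkal2 lies on chromosome 12 (30884322 to 30893854, plus strand), and the end of its last exon overlaps the end of Acp1, a phosphatase gene on the minus strand, over 529 nt (30893326 to 30893854), which is 35.1% of its 1509 exonic nt. Of its 1479 31-mers, the word length by which kallisto assigns reads, 33.7% also occur in Acp1 transcripts. The sources used here do not state that strand was used, so reads from the overlap cannot be assigned to either gene by strand.

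Acp1 gave 39.9 ± 2.75 and 37.6 ± 1.19 CPM in Control-shRNA cultures and 28.5 ± 2.20 and 22.8 ± 1.77 CPM after knockdown (SD, n = 4). Bicuculline moved it by -0.09 (interval -0.24 to 0.07) and -0.32 (interval -0.48 to -0.17) on the log2 scale, where Alkal2 was 6.21 and 6.48 times its baseline. Knockdown moved it by -0.48 at baseline (edgeR adjusted p = 0.000169), under the fold threshold, and it fell by 0.72 with bicuculline (adjusted p = 2.88e-06). The baseline value passed the fold threshold without TMM scaling (-0.56), and also without replicate 2 of Control-shRNA baseline (-0.52) or replicate 3 of Dnmt3a1-shRNA2 baseline (-0.53). Both genes were lower after knockdown while Acp1 was not higher with bicuculline, and the part of shared reads in either value was not tested.

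Other neighbours showed no common pattern. On one side lie Tmem18, Sntg2 and Pxdn, with gaps of 293.1, 510.9 and 866.7 kb from Alkal2, and on the other Sh3yl1 and Lamb1, with gaps of 17.8 and 371.4 kb. Pxdn and Sntg2 fell with bicuculline under both shRNAs, by 0.70 and 0.67 and by 0.64 and 0.89 on the log2 scale. Tmem18 fell by 0.57 in knockdown cultures. Sh3yl1, which starts just beyond Acp1, differed by 0.47 and 0.40, under the fold threshold, and Lamb1 by 0.14 and 0.21. None of these 5 was called between the shRNAs, with log2 fold changes from -0.29 to 0.08.

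The genes most like Alkal2 across the 16 libraries, by Pearson's r of log2 CPM in a set of 13880 genes whose mean reached 1 CPM, were Gne (0.99), Ptgs2 (0.989), Phf21b (0.988), Bdnf (0.987) and Cebpd (0.986). Each had its highest mean with bicuculline under Control-shRNA and its lowest at baseline after knockdown. Ptgs2, the inducible cyclooxygenase, went from 5.01 ± 1.96 to 142.1 ± 43.2 CPM in Control-shRNA and from 0.82 ± 0.32 to 68.2 ± 26.9 CPM in knockdown cultures. Bdnf, the neurotrophin gene induced by activity, went from 78.2 ± 19.7 to 452.6 ± 92.4 and from 46.8 ± 8.59 to 352.4 ± 48.7 CPM. The genes least like it were Foxo1 (-0.985), Kctd5 (-0.98) and Sema4d (-0.979), and Foxo1 went from 70.4 to 35.2 and from 99.5 to 46.0 CPM. These values rest mainly on the differences between the 4 groups.

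Within groups, after each group's mean was taken away, Hcrtr2 (0.945) and Bdnf (0.943) had the highest r with Alkal2, followed by BC005537 (0.923), Rpl22l1 (0.906) and Klhl4 (0.904). The other family genes were not alike in this sense: r with Alkal2 was -0.389 for Alk, -0.0711 for Ltk, -0.559 for Ptn and -0.661 for Mdk. The points share library, depth and preparation, and these are descriptions across libraries, as Alkal2 was chosen for its pattern.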

How the data were processed

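The 16 libraries of 100 bp paired-end reads fell into 4 groups of 4 by the labels. The authors trimmed reads with Trim Galore 0.6.4 and assigned them to GRCm38.p6 with kallisto. The deposited files hold estimated counts per gene and TPM (scaled to length and total). Whether counting used strand is not given in the sources used here. The estimated counts were rounded; identifiers were matched to GENCODE M21 (55144 of 55385). Genes were tested in edgeR 4.0.16 (R 4.3.3; filterByExpr, TMM, glmQLFit and glmQLFTest, all 16 libraries in 1 fit of 4 groups), with Benjamini-Hochberg adjustment over 17222 genes. A gene was called where the adjusted p was under 0.05 and the log2 fold change beyond 0.5 in either direction. This differs from the limma-voom test of the study's methods, which is among the alternatives (limma 3.58.1), as is DESeq2 1.42.0. SE is the absolute log2 fold change over the root of F. The procedure was tested on simulated data. Promoter windows are RefSeq's (GRCm38.p6), listed for 4 of the 6 genes. Replicate numbers come from the labels. Deviations of same-numbered libraries correlated over all genes at 0.142 to 0.221 between treatments in Control-shRNA and 0.204 to 0.355 between shRNAs at baseline, and were taken as pairs there. Libraries of different numbers reached 0.238 and 0.216 in these comparisons, so the pairing is an assumption and not shown by the data. In the other comparisons the lowest same-numbered value was 0.0631 and 0.0667, and the numbers were not taken as pairs. No library repeated another within a group (chi-square per degree of freedom 7.88 to 44.5).

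The 6 genes, the gene lists and the rule for named genes were chosen with earlier results of these data known. Named were the 6 genes, Dnmt3a, up to 3 called genes per list, direction and comparison with the largest log2 fold change, Ptprz1, Sdc3, Nrp1, the genes most and least like Alkal2, its 3 nearest tested neighbours on each side, Arc, Fos, Npas4 and defining cell type markers. Dusp6, Spry4, Etv5, Insr, Ros1 and Insrr are named beyond that rule, after their values were seen. Where nothing else is said, p-values measure the spread between these libraries.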

Additional observations from a re-analysis of the deposited data

How the results depend on the processing

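The lower level of Ltk after knockdown kept its call under all 11 alternatives (log2 -1.24 to -0.72 at baseline, -1.15 to -0.65 with bicuculline) and in all 16 leave-one-out fits. Low counts limit Ltk and Mdk, 4 libraries a group limit small differences, and reads shared with Acp1 limit Alkal2. Where a value moved, the cause was not tested.

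Of the family genes, with bicuculline in Control-shRNA cultures 2 were called by DESeq2, with no fold threshold and with the replicate block, and 1 to 2 leaving out single libraries. In knockdown cultures 1 was called with library sizes only, with no filter, on log2(TPM + 1) and log2(TPM + 0.1), at an absolute log2 fold change over 1 and with library sizes only and the replicate block (chosen after seeing the data), and 1 to 2 leaving out single libraries. A log2 fold change over 1 left 1 in each knockdown comparison. Of the 69 pathway genes, in the order bicuculline in Control-shRNA, bicuculline in knockdown, knockdown at baseline and knockdown with bicuculline, 16, 20, 8 and 7 were called, against 32, 40, 22 and 16 with no fold threshold and 10, 11, 3 and 1 over 1. On log2(TPM + 1) 5 and 3 were called in the knockdown comparisons, and on log2(TPM + 0.1) 4 with bicuculline. Over all genes, 3765, 4436, 1004 and 1015 became 7131, 7919, 2809 and 3046 with no fold threshold and 1378, 1681, 175 and 185 over 1. The interaction gave 0 genes, 18 by DESeq2, 3 with no filter, 3 with the replicate block, 15 with library sizes only and the replicate block, and 0 to 1 leaving out single libraries.

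The replicate block gave 3986 genes for bicuculline in Control-shRNA and 1284 for knockdown at baseline, where the numbers were taken as pairs. In the other comparisons, where they were not, it gave 4612 and 1338. Of the family genes, only the call of Mdk in Control-shRNA changed with the block. For knockdown with bicuculline, Ptn was 0.46 with the block (edgeR adjusted p = 0.00013), under the fold threshold.

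Some small differences, none of them called, changed sign. With bicuculline in Control-shRNA cultures, Ltk was -0.0379 with library sizes only, -0.0869 on log2(TPM + 1), -0.133 on log2(TPM + 0.1) and -0.0444 with library sizes only and the block. Ptn was -0.00733 and -0.00738 and Ptprz1 -0.00163 and -0.00201 on the TPM scales. Sdc3 was -0.16 with library sizes only, with or without the block, -0.00336 with no filter, and -0.21 on both TPM scales. In knockdown cultures Alk was -0.00257 with library sizes only, and Ltk -0.0199 and -0.0319 on the TPM scales. Between the shRNAs at baseline Alk was -0.00259 with library sizes only, -0.0308 and -0.0405 on the TPM scales and -0.0107 with library sizes only and the block. Leaving out single libraries, the interaction ran from -0.0633 to 0.263 for Alkal2, -0.0171 to 0.18 for Ltk, -0.14 to 0.15 for Mdk and -0.14 to 0.18 for Ptn, and Sdc3 with bicuculline in Control-shRNA from -0.0551 to 0.0268.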
